A study of Mus musculus with 6 samples.

Results

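The genes described here are the aminoacyl-tRNA synthetases of mouse leukemia stem cells (LSCs), taken by symbol: a one-letter amino acid code followed by "ars", with *Eprs*, *Farsa*, *Farsb* and *Mars1*, for the cytosolic class, the same with a trailing 2 for the mitochondrial class, and *Aimp1*, *Aimp2* and *Eef1e1*, the scaffold genes of the multi-tRNA synthetase complex. The rule found 40 genes of the 26402 with values in any library, namely 20 cytosolic, 17 mitochondrial and 3 scaffold genes, and 0 were dropped for being at 0 in all libraries. RNA was sequenced from 3 WT and 3 *Piezo1 cKO* libraries of LSCs sorted from the bone marrow of AML mice aged 8 to 10 weeks. *Piezo1 cKO* donors were *Mx1-cre; Piezo1 fl/fl* mice given pIpC, which induces the Cre, and WT donors were *Piezo1 fl/fl* littermates without Cre that received the same agent. Lin- bone marrow cells of either donor were transduced with an MLL-AF9-YFP retrovirus and passed on to irradiated recipients, so that the floxed allele, pIpC, the fusion oncogene and transplantation are shared by both groups. The *Mx1* promoter answers to interferon and is not restricted to a blood cell type. Neither the transplantation round nor whether libraries come from separate animals is given, and p-values then measure the spread between these libraries, which may be technical. Squared differences between libraries of a group were 1.37 to 1.94 times those of counting noise, over up to 4279 genes with a mean of 200 to 1000 reads.

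A synthetase joins an amino acid to its tRNA, and the charged tRNA is what the ribosome uses. Cytosol and mitochondria keep separate translation systems, and most mitochondrial synthetases are separate nuclear genes, while *Gars* and *Kars* encode enzymes for both compartments. Several cytosolic synthetase genes are known targets of ATF4, the transcription factor made when amino acids are short. The question here is how the members of each class differed between WT and *Piezo1 cKO* LSCs.

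The deposited values are on a log2 scale and pull each gene towards its mean, most of all genes with few reads. Fold changes of these values are smaller than those of the reads. The read numbers behind them were therefore recovered and divided by the library's size factor (normalised reads), and the libraries held 14112122 to 15483613 reads on genes. The targeted gene *Piezo1*, a mechanosensitive ion channel, had 101, 92.8 and 109 normalised reads in the WT libraries and 36.6, 56.5 and 45.8 in the *Piezo1 cKO* libraries. Every *Piezo1 cKO* library was below every WT library, at 45.9% of the WT mean, and the deposited values differed by -0.29 in log2 (SE 0.04, limma adjusted p = 5.8e-06). *Piezo1* reads thus did not vanish, and the gene value does not show which exons they cover.

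Most cytosolic synthetases were lower in *Piezo1 cKO* LSCs. At an adjusted p under 0.05 (limma on the deposited values, Benjamini-Hochberg over 16746 genes), 16 of the 20 cytosolic genes were lower, where 31.4% of all genes tested were, and 2 were higher, where 31.6% were. Among mitochondrial synthetases 6 of 17 were lower, near the share of all genes, 1 was higher, below that share, and 10 did not pass. With libraries centred on their medians these counts were 4 lower and 3 higher. The median log2 fold change was -0.39 over the cytosolic class and -0.06 over the mitochondrial class, with 0.00 over all genes tested. In the recovered reads the medians were -0.55 and -0.09, which puts the middle cytosolic gene at 68.5% and the middle mitochondrial gene at 93.7% of its WT level. The groups did not overlap, with the *Piezo1 cKO* libraries lower, for 16 cytosolic and 6 mitochondrial genes, against 33.1% of all genes tested, and with the *Piezo1 cKO* libraries higher for 2 and 1, against 33.5%. The same centring, which turns the shares of all genes to 25.2% lower and 38.5% higher, left the cytosolic counts at 16 and 2. Synthetases have many reads, and of the 7669 genes averaging 200 reads or more, a limit chosen after seeing the data, 37.2% were lower and 33.2% were higher.

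Summed over the class, the cytosolic synthetases took 4937, 4913 and 4949 RPM (normalised reads scaled to the mean library total on genes) in the WT libraries and 3265, 3196 and 3222 in the *Piezo1 cKO* libraries. The *Piezo1 cKO* sum was 65.4% of the WT sum. The mitochondrial class took 836, 822 and 820 RPM in WT and 765, 766 and 763 in *Piezo1 cKO* libraries, or 92.6%. The 3 scaffold genes together took 139, 140 and 142 RPM in WT and 135, 133 and 137 in *Piezo1 cKO* libraries, or 96.4%. Fewer cells of a type and less RNA per cell cannot be told apart in these bulk libraries.

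**Figure D1:**
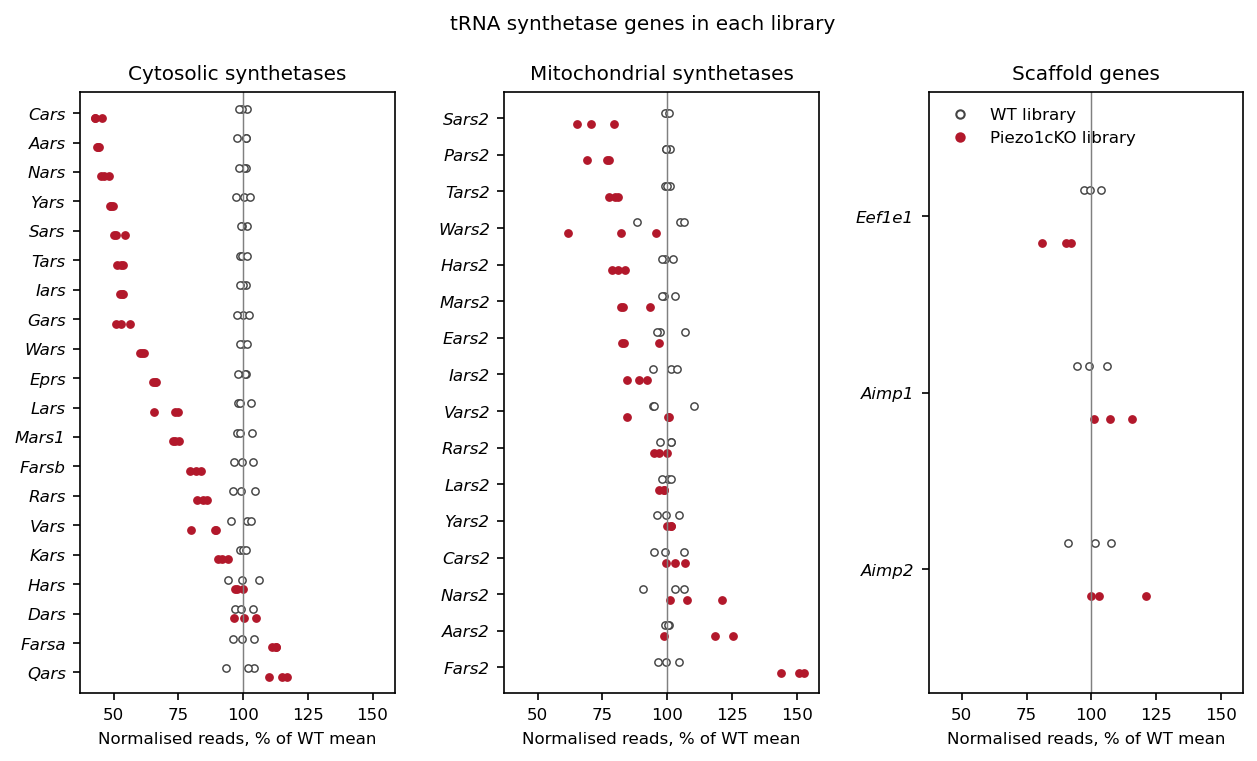
Normalised reads of 39 of the 40 genes in each library as a percentage of the gene's WT mean, with WT libraries as open points and *Piezo1 cKO* libraries as filled points. Filled points lie near 44% for *Cars* and *Aars* at the top of the cytosolic panel, and at about 149% for *Fars2* at the foot of the mitochondrial panel.

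The cells were checked against their labels, and other cells' markers were read from the same libraries. *Kit*, *Cd34*, *Fcgr3*, *Ptprc*, *Hoxa9* and *Meis1* had at least 730 normalised reads in each library, and *Ly6a*, which encodes Sca-1, had at most 16.6. Of these 7 genes 4 were higher and 1 was lower in *Piezo1 cKO* libraries, where 31.6% and 31.4% of all genes tested were. The same shares stand beside each marker count that follows. *Ly6a* was among the higher genes, with 0.97, 1.01 and 0.0 reads in WT and 10.4, 16.6 and 7.12 in *Piezo1 cKO* libraries. The 7 genes summed to 18638, 18272 and 18512 reads in WT and 21978, 21532 and 21530 in *Piezo1 cKO* libraries. *Fcgr3* led the sum in WT and *Cd34* in *Piezo1 cKO* libraries (5966, 5781 and 5642 reads, with 3790, 3680 and 3692 in WT). The log2 fold change of *Fcgr3* was -0.02 and did not pass (limma adjusted p = 0.574). Neutrophil granule genes moved with the groups: 5 of 7 were lower and *Mmp8* was higher, and the list summed to 2607, 2580 and 2547 reads in WT and 1001, 937 and 972 in *Piezo1 cKO* libraries. It was led by *Ngp* in WT (1282, 1307 and 1243 reads, with 151, 127 and 140 in *Piezo1 cKO* libraries) and by *Mmp8* in *Piezo1 cKO* libraries (651, 623 and 627 reads, with 37.8, 42.4 and 47.1 in WT). The mast cell and basophil list went the other way, with 3 of 4 genes higher and sums of 697, 662 and 723 reads in WT against 5516, 5156 and 5203 in *Piezo1 cKO* libraries, led by *Cpa3*, with 570, 533 and 594 reads in WT and 5213, 4864 and 4931 in *Piezo1 cKO* libraries. The part of these markers in the synthetase values was not tested. The B cell list summed to 1580, 1533 and 1597 reads in WT and 2472, 2627 and 2404 in *Piezo1 cKO* libraries, almost entirely *Cd79b*, and 2 of its 4 genes were higher, while *Ms4a1* had at most 1.01. The macrophage list, led by *Adgre1*, summed to 610, 632 and 592 reads in WT and 699, 624 and 653 in *Piezo1 cKO* libraries, with 2 of 4 genes higher and *C1qa* at 0. The NK list, led by *Klrb1c*, had 0 reads in WT and 33.4, 39.0 and 52.9 in *Piezo1 cKO* libraries, with 1 of 2 genes higher and *Ncr1* at most 1.95. Erythroid markers, led by *Hba-a1*, summed to at most 28.3 reads a library with none past the test in either direction, and T cell markers, led by *Cd3d*, to at most 10.7, with 1 of 5 lower and *Cd8a* at 0. *Xist* had at most 0.97 reads, and the 4 Y-linked genes, led by *Uty*, were present in all 6 libraries, with 1 higher; the sex-linked list summed to 5453 to 6107 reads.

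Among cytosolic synthetases outside the multi-tRNA synthetase complex, the largest fall on the deposited scale was that of the alanine enzyme. *Aars* had 3453, 3569 and 3568 normalised reads in the WT libraries and 1560, 1566 and 1539 in the *Piezo1 cKO* libraries. Each *Piezo1 cKO* library was far below each WT library, and the *Piezo1 cKO* libraries lay within 27 reads of each other. The log2 fold change was -0.83 (SE 0.0264, limma adjusted p = 4.85e-15), and the mean was 44.0% of WT. The gene lies at chr8:111033144-111057664 (GRCm38).

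*Nars* encodes the asparagine enzyme and had the highest level per length of all members. *Nars* had 17187, 17019 and 16753 normalised reads in the WT libraries and 8193, 7889 and 7690 in the *Piezo1 cKO* libraries. The groups did not overlap, and *Piezo1 cKO* libraries held 46.6% of the WT mean. Its log2 fold change was -0.81 (SE 0.0203, limma adjusted p = 1.29e-16).

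*Cars* charges tRNA with cysteine and lies at chr7:143557230-143600090. *Cars* had 1269, 1244 and 1230 normalised reads in the WT libraries and 568, 534 and 533 in the *Piezo1 cKO* libraries. All 3 *Piezo1 cKO* libraries were below all 3 WT libraries, at 43.7% of the WT mean. Limma gave a log2 fold change of -0.77 (SE 0.0323, limma adjusted p = 3.39e-13).

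The tyrosine enzyme *Yars* (chr4:129189760-129219607) fell to 49.1% of the WT mean. *Yars* had 3494, 3607 and 3692 normalised reads in the WT libraries and 1765, 1787 and 1747 in the *Piezo1 cKO* libraries. Both groups were tight and apart. On the deposited scale the log2 fold change was -0.73 (SE 0.0267, limma adjusted p = 4.62e-14).

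*Tars* and *Sars* charge threonine and serine tRNAs. *Tars* had 5548, 5597 and 5703 normalised reads in the WT libraries and 2894, 3005 and 2981 in the *Piezo1 cKO* libraries. *Sars* had 1806, 1772 and 1764 normalised reads in the WT libraries and 911, 894 and 971 in the *Piezo1 cKO* libraries. For both genes the highest *Piezo1 cKO* library was below the lowest WT library, with means of 52.7% and 52.0% of WT. The log2 fold change of *Tars* was -0.67 (SE 0.0239, limma adjusted p = 3.23e-14), and that of *Sars* was -0.64 (SE 0.031, limma adjusted p = 2.89e-12).

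On the deposited scale 0 cytosolic and 0 mitochondrial genes passed both thresholds for a differentially expressed gene (DEG: a log2 fold change beyond 1 in size, with a limma adjusted p under 0.05), where 0.561% of all genes did downwards and 0.257% upwards; at an unadjusted p the counts were also 0 and 0. On the recovered reads, where fold changes are not shrunken, limma-voom put 4 cytosolic genes past both thresholds downwards, where 12.2% of all genes were, and 0 upwards, where 12.7% were. Of the 7669 genes averaging 200 reads or more, 241 were past both downwards and 143 upwards. The 4 cytosolic genes were *Cars* (-1.19), *Aars* (-1.18), *Nars* (-1.10) and *Yars* (-1.03), as log2 fold changes of reads. For the mitochondrial class the counts on reads were 0 and 0. At the adjusted p alone, limma-voom gave 16 lower and 2 higher cytosolic genes and 6 lower and 1 higher mitochondrial genes, where 31.4% and 31.6% of all genes were lower and higher.

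The remaining cytosolic genes outside the complex were graded. *Gars* (glycine) changed by -0.64 and *Wars* (tryptophan) by -0.51 on the deposited log2 scale, and *Vars* (valine) by -0.16, each past the limma threshold and with groups that did not overlap. *Hars*, the histidine enzyme, ranged from 772 to 868 normalised reads in WT and from 794 to 818 in *Piezo1 cKO* libraries. These ranges overlap, and its log2 fold change of -0.02 did not pass (SE 0.0345, limma adjusted p = 0.707). Its sign turned when libraries were centred on their medians (0.01) or without WT replicate 3 (0.01).

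Phenylalanine is charged by an enzyme made of *Farsa* and *Farsb* subunits, and these moved in opposite directions. *Farsa* had 1673, 1816 and 1739 normalised reads in the WT libraries and 1966, 1940 and 1964 in the *Piezo1 cKO* libraries. *Farsb* had 1338, 1292 and 1393 normalised reads in the WT libraries and 1122, 1064 and 1096 in the *Piezo1 cKO* libraries. Every *Piezo1 cKO* library was above every WT library for *Farsa* and below for *Farsb*. The log2 fold changes were 0.12 (SE 0.0292, limma adjusted p = 0.00204) and -0.20 (SE 0.0315, limma adjusted p = 3.08e-05).

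Of the 8 cytosolic synthetases in the complex, 6 were lower and 1 was higher, with a median log2 fold change of -0.24. For the 12 outside it the counts were 10 and 1 and the median was -0.64, where 31.4% of all genes tested were lower and 31.6% higher; the difference between these groups was not tested. *Iars* (isoleucine) stood lowest in the complex at -0.63, followed by *Eprs* (glutamate and proline) at -0.44, *Lars* (leucine) at -0.34, *Mars1* (methionine) at -0.31, *Rars* (arginine) at -0.17 and *Kars* (lysine) at -0.08, all past the limma threshold on the deposited log2 scale. Groups did not overlap for any of these 6 genes, as for 33.1% of all genes downwards and 33.5% upwards. *Dars*, the aspartate enzyme, ranged from 5994 to 6422 normalised reads in WT and from 5969 to 6496 in *Piezo1 cKO* libraries. Its groups overlap, and its log2 fold change of 0.01 did not pass (SE 0.0261, limma adjusted p = 0.847). It was -0.01 without WT replicate 2 and -0.02 without *Piezo1 cKO* replicate 1.

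*Qars*, for glutamine, was the member of the complex that rose. *Qars* had 722, 805 and 788 normalised reads in the WT libraries and 902, 850 and 887 in the *Piezo1 cKO* libraries. The lowest *Piezo1 cKO* library was above the highest WT library. Limma gave a log2 fold change of 0.12 (SE 0.0349, limma adjusted p = 0.00552), and the mean was 114% of WT.

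The scaffold proteins hold the complex together and charge no tRNA. *Eef1e1* had 1245, 1163 and 1191 normalised reads in the WT libraries and 1105, 970 and 1080 in the *Piezo1 cKO* libraries. *Aimp1* had 447, 468 and 502 normalised reads in the WT libraries and 478, 508 and 548 in the *Piezo1 cKO* libraries. *Aimp2* had 378, 448 and 422 normalised reads in the WT libraries and 428, 504 and 416 in the *Piezo1 cKO* libraries. *Eef1e1* was lower without overlap of the groups, while WT and *Piezo1 cKO* ranges overlapped for *Aimp1* and *Aimp2*. The log2 fold change was -0.13 for *Eef1e1* (SE 0.0357, limma adjusted p = 0.00462), 0.07 for *Aimp1* (SE 0.039, limma adjusted p = 0.146) and 0.06 for *Aimp2* (SE 0.0451, limma adjusted p = 0.239).

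By structural class, 8 of 9 cytosolic class I enzymes were lower and 1 was higher, with a median log2 fold change of -0.34. Of 10 class II genes, 7 were lower and 1 was higher, with a median of -0.42. The shares of all genes tested were 31.4% lower and 31.6% higher. *Eprs* joins an enzyme of each class in 1 protein and is in neither count. Falls of over 0.6 on the deposited log2 scale occurred in both classes, in *Cars*, *Yars* and *Iars* of class I and in *Aars*, *Nars*, *Tars*, *Sars* and *Gars* of class II.

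Mitochondrial synthetases charge the tRNAs encoded by mitochondrial DNA, and the largest change in this class was a rise. *Fars2* had 308, 317 and 334 normalised reads in the WT libraries and 488, 481 and 459 in the *Piezo1 cKO* libraries. Every *Piezo1 cKO* library of this phenylalanine enzyme was above every WT library, at 149% of the WT mean. Its log2 fold change was 0.32 (SE 0.0358, limma adjusted p = 4.21e-07). It lies at chr13:36117412-36726280.

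*Sars2* and *Tars2*, for serine and threonine, were lower, as were their cytosolic counterparts. *Sars2* had 457, 454 and 461 normalised reads in the WT libraries and 323, 363 and 298 in the *Piezo1 cKO* libraries. *Tars2* had 2595, 2640 and 2610 normalised reads in the WT libraries and 2028, 2120 and 2088 in the *Piezo1 cKO* libraries. The groups did not overlap for either gene, and the means were 71.7% and 79.5% of WT. For *Sars2* the log2 fold change was -0.27 (SE 0.0398, limma adjusted p = 1.3e-05). For *Tars2* it was -0.23 (SE 0.0266, limma adjusted p = 5.15e-07).

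*Pars2* charges proline and *Hars2* histidine. *Pars2* had 322, 317 and 316 normalised reads in the WT libraries and 247, 244 and 220 in the *Piezo1 cKO* libraries. *Hars2* had 713, 705 and 734 normalised reads in the WT libraries and 601, 565 and 581 in the *Piezo1 cKO* libraries. Here too all *Piezo1 cKO* libraries were below all WT libraries. The log2 fold changes were -0.21 (SE 0.0371, limma adjusted p = 7.02e-05) and -0.19 (SE 0.0332, limma adjusted p = 9.62e-05). *Hars* and *Hars2* are read in opposite directions and share 195 bases of exon where they begin.

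*Iars2* (isoleucine) and *Mars2* (methionine) were both at -0.10 on the deposited log2 scale, with limma adjusted p of 0.0185 and 0.0299. These 2 calls were fragile. *Mars2* did not pass without WT replicate 1 (limma adjusted p = 0.0533), WT replicate 2 (0.0507), WT replicate 3 (0.0926), *Piezo1 cKO* replicate 1 (0.0818) or *Piezo1 cKO* replicate 2 (0.101), nor with libraries centred on their medians (0.0886), nor on recovered reads scaled by library totals (0.0575) or without the filter on reads (0.0833); over the alternatives its limma adjusted p ranged from 0.0151 to 0.101. *Iars2* did not pass without WT replicate 1 (limma adjusted p = 0.0575), WT replicate 3 (0.0851) or *Piezo1 cKO* replicate 3 (0.0863), nor with centred libraries (0.0604), and its range was 0.00772 to 0.0863.

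The mitochondrial genes that follow did not pass. Their deposited log2 fold changes were -0.09 for *Ears2* (glutamate), -0.08 for *Wars2* (tryptophan), -0.04 for *Vars2* (valine), -0.03 for *Rars2* (arginine), -0.02 for *Lars2* (leucine), 0.01 for *Yars2* (tyrosine), 0.02 for *Cars2* (cysteine), 0.08 for *Nars2* (asparagine) and 0.09 for *Aars2* (alanine). WT and *Piezo1 cKO* libraries overlapped for each of these 9 genes. *Wars2* had the fewest reads of all members, 43.9 to 76.0 a library. Its mean was 79.8% of WT, and its log2 fold change in recovered reads was -0.34, which did not pass either (limma-voom adjusted p = 0.116). Without *Piezo1 cKO* replicate 3, *Ears2* (limma adjusted p = 0.0261) and *Wars2* (0.0397) passed, and without *Piezo1 cKO* replicate 1, *Aars2* did (0.00637), making 2 higher genes. *Aars2* (0.0242) and *Nars2* (0.0427) also passed, as higher, when libraries were centred on their medians, which raises the count of higher mitochondrial genes from 1 to 3. Over all alternatives the limma adjusted p ran from 0.0261 to 0.223 for *Ears2*, from 0.0397 to 0.393 for *Wars2*, from 0.00637 to 0.317 for *Aars2* and from 0.0293 to 0.49 for *Nars2*.

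Set side by side were 17 pairs of a cytosolic and a mitochondrial gene that charge the same amino acid, *Eprs* and *Fars2* each serving in 2. In 16 of them the cytosolic gene had the lower log2 fold change on the deposited scale, where genes with few reads are shrunken most. The exception was *Hars* with *Hars2*. For alanine the log2 ratio of *Aars* to *Aars2* reads was 3.88, 3.90 and 3.91 in WT and 2.74, 2.48 and 2.37 in *Piezo1 cKO* libraries. The ratio was lower in every *Piezo1 cKO* library, by -1.37 on average, with an exact two-sided permutation p of 0.1, the smallest that 3 against 3 libraries can give. The asparagine pair *Nars* and *Nars2* had ratios of 4.69, 4.72 and 4.89 in WT and 3.44, 3.65 and 3.52 in *Piezo1 cKO* libraries. Its groups were apart by -1.23 (exact permutation p = 0.1), as were those of *Cars* and *Cars2* by -1.24 and of *Yars* and *Yars2* by -1.04. For proline, where both genes fell, the log2 ratio of *Eprs* to *Pars2* was 4.31, 4.33 and 4.30 in WT and 4.09, 4.09 and 4.25 in *Piezo1 cKO* libraries, a difference of -0.17. The histidine pair went the other way, from 0.20, 0.13 and 0.24 in WT to 0.45, 0.50 and 0.45 in *Piezo1 cKO* libraries, a difference of 0.28 (exact permutation p = 0.1). Over these 17 pairs the log2 ratio was lower without overlap in 14, higher without overlap in 1, and overlapped in 2, a count for which no share of all genes exists.

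**Figure D2:**
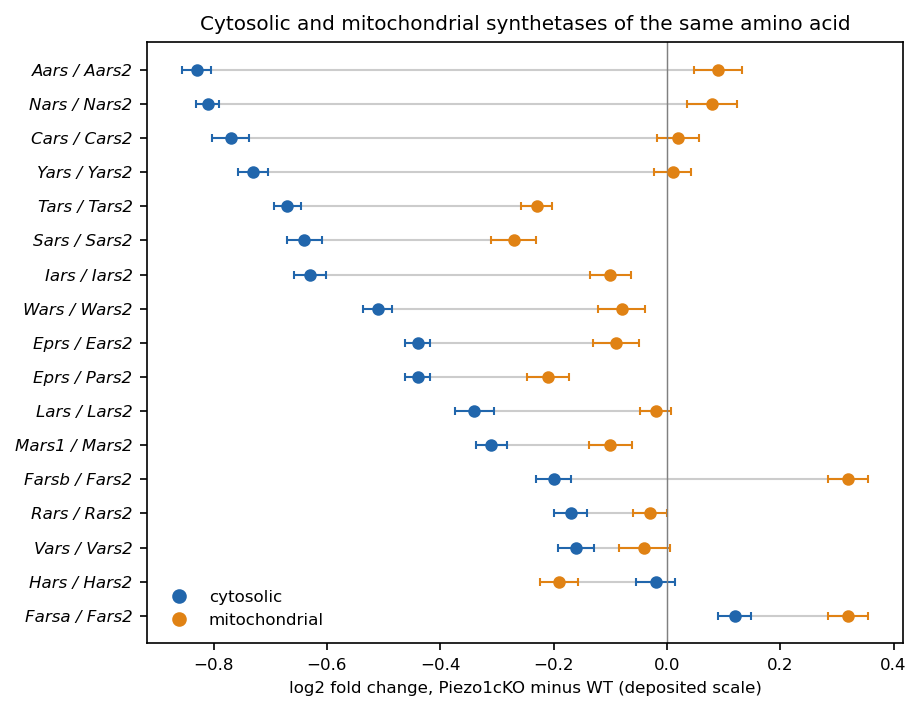
Log2 fold change, *Piezo1 cKO* minus WT, on the deposited scale for each cytosolic gene and the mitochondrial gene of the same amino acid, with bars of 1 SE from limma. The cytosolic gene is the lower of the pair in 16 of the 17 pairs drawn, and the distance is widest for *Aars* (-0.83) and *Aars2* (0.09).

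Levels between genes were compared per length, as RPKM, the RPM divided by the kilobases of annotated exon. Exons of all annotated transcripts of a gene were merged, so levels and ranks depend on how much exon is annotated. In WT libraries the cytosolic genes had a median level of 37.5 RPKM, and the mitochondrial genes 6.02. *Nars* led with a level of 262 ± 3.37 (SD, n = 3), followed by *Dars* at 95.4 ± 3.35, *Gars* at 65.6 ± 1.45, *Wars* at 64.2 ± 0.926 and *Tars* at 63.9 ± 0.902. The last 3 of these do not differ from each other beyond their spread. The lowest cytosolic level was that of *Qars*, 7.89 ± 0.45. Among mitochondrial genes the level ran from 0.805 ± 0.0804 for *Wars2* to 38.5 ± 0.981 for *Rars2*, which is above the cytosolic median. In *Piezo1 cKO* libraries the medians were 28.5 and 5.56. *Nars* still led with 122 ± 3.91, *Dars* followed with 96.0 ± 4.06, and *Cars* at 5.56 ± 0.204 took the lowest place in the cytosolic class. The scaffold genes had levels of 24.7 ± 0.862 (*Eef1e1*), 16.9 ± 1.43 (*Aimp2*) and 5.67 ± 0.333 (*Aimp1*) in WT libraries. Cytosolic genes of high and of low level are both found among those that fell, from *Nars* at 262 to *Cars* at 12.7 ± 0.204.

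Some exons are shared with neighbours, and the library type does not keep strand, so reads there cannot be told apart. The overlap with *Eif2ak1* covers 29.4% of the exon length of *Aimp2*, that with *Rab3gap2* 22.9% of *Iars2*, and that with *Exosc6* 14.3% of *Aars*. For *Farsb* and *Sgpp2* it is 9.47%, and for *Fars2* and *Nrn1* 8.72%.

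Promoter sequences from RefSeq (GRCm38.p6), running from 250 bases before to 50 after the start, were found for 30 of the 40 genes; those with none in the table used include *Cars*, *Hars*, *Lars*, *Nars*, *Rars*, *Vars*, *Wars*, *Hars2* and *Pars2*. The letters TGATGNAA, the core of the C/EBP-ATF response element to which ATF4 binds, were searched on both strands. They occur in 5 of 13 cytosolic promoters (38.5%), in 0 of 15 mitochondrial promoters and 0 of 4 scaffold promoters, and in 3.97% of all 32851 promoters of this length. The 5 genes are *Aars*, *Gars*, *Iars*, *Tars* and *Yars*, whose deposited log2 fold changes ran from -0.83 to -0.63, with a median of -0.67. The 8 cytosolic genes without the letters in this window ran from -0.64 to 0.12, with a median of -0.14. A match describes the sequence and does not show binding. The cores of the hypoxia response element were searched in the same way: ACGTG was in 6 of 13 cytosolic and 4 of 15 mitochondrial promoters against 19.6% of all, and GCGTG in 10 of 13 and 10 of 15 against 32.4%. For ACGTG the median log2 fold change was -0.53 over the 6 cytosolic genes with it (-0.83 to -0.08) and -0.31 over the 7 without (-0.73 to 0.12). For GCGTG it was -0.53 over the 10 with it (-0.73 to 0.12) and -0.20 over the 3 without (-0.83 to -0.08), and none of these differences was tested. Neither overlaps TGATGNAA in its letters. *Sars*, which fell by 0.64 on the deposited log2 scale, is among the 8 genes without TGATGNAA. The 5 promoters are shown because they hold the letters, with the match in capitals, as TGATGNAA or, on the other strand, as its reverse complement. *Aars* (chr8:111033592-111033891, plus strand) has a match at -112 and another at 9, counted from 0 at the RefSeq start to the first capital. The matches of *Gars* (chr6:55037751-55038050, plus strand) and *Iars* (chr13:49681880-49682179, plus strand) lie at -30 and 7, and those of *Tars* (chr15:11399609-11399908, minus strand) and *Yars* (chr4:129189653-129189952, plus strand) at -15 and 3.
*Aars*: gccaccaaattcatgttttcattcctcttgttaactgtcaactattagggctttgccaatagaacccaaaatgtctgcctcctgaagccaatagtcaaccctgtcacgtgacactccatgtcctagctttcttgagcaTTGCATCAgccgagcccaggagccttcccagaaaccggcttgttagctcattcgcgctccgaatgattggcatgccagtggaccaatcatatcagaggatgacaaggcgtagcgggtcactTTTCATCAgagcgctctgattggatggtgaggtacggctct
*Gars*: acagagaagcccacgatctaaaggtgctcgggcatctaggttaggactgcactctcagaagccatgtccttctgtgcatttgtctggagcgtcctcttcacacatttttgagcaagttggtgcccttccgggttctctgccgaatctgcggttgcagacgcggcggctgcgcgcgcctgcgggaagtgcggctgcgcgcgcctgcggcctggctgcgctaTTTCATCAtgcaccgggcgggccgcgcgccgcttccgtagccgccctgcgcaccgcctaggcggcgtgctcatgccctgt
*Iars*: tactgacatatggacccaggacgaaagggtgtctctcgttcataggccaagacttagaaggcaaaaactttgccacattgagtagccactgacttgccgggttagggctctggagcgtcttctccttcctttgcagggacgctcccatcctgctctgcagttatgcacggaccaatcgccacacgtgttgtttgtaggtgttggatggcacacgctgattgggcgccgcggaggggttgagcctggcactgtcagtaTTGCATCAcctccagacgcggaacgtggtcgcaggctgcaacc
*Tars*: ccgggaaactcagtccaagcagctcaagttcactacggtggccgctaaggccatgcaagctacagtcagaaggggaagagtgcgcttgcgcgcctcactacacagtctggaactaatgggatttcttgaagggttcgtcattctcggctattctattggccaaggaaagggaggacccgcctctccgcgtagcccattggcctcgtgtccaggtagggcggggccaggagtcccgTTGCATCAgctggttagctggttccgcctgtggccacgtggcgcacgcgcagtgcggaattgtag
*Yars*: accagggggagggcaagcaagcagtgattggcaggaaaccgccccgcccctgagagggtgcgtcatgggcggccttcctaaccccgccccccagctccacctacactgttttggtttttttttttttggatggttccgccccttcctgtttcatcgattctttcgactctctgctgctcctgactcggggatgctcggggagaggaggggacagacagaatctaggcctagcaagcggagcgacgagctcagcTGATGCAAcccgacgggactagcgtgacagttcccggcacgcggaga

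Genes around the synthetases were read from the same fit. Of 20 amino acid stress genes, the targets of ATF4 with *Atf4* itself, 19 were tested and 19 were lower, the median being -0.77. On the deposited scale *Trib3*, a pseudokinase (-3.17), and *Asns*, asparagine synthetase (-2.24), fell furthest. *Slc7a11*, the cystine transporter (-2.21), and *Sesn2*, a stress-induced inhibitor of mTORC1 (-1.80), came next. In recovered reads, which are not shrunken, the order differed. There the log2 fold changes were -6.51 for *Trib3*, -6.06 for *Chac1*, -4.66 for *Slc7a11*, -3.32 for *Asns* and -2.85 for *Sesn2*. *Asns* makes the amino acid that *Nars* joins to tRNA, and had 3391, 3442 and 3457 normalised reads in WT and 384, 338 and 314 in *Piezo1 cKO* libraries. TGATGNAA was in 5 of the 19 promoters found for 17 genes of this list (26.3%).

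Cytosolic elongation and termination factors divided, with 5 of 10 lower and 3 higher and a median of -0.07. *Gspt1* (-1.06) and *Etf1* (-0.42), which release the finished chain, and *Abce1* (-0.25), which recycles ribosomes, were lower, while *Eef1b2* (0.26), of the complex that reloads the carrier of charged tRNA, was higher. Mitochondrial translation factors had 2 of 10 lower and 2 higher and a median of 0.04. The release factor *Mtrf1* (0.53) and the initiation factor *Mtif3* (0.19) were higher, and the elongation factor *Gfm1* (-0.29) and the ribosome recycling factor *Mrrf* (-0.16) were lower. Of the 77 mitochondrial ribosomal proteins tested, 20 were lower and 27 higher, with a median of 0.00, and *Mrpl3* (0.35), *Mrpl50* (-0.34), *Mrpl28* (0.26) and *Mrps22* (-0.25) moved furthest; with centred libraries 13 were lower. No mitochondrial synthetase that joins glutamine to tRNA is in the class, since mitochondria make that charged tRNA through an amidotransferase. Its subunits *Gatc* (0.25) and *Gatb* (0.21) were higher and *Qrsl1* (-0.23) was lower, and *Mtfmt* (0.08), which formylates the initiator tRNA, was higher, the median of these 4 being 0.14. Only 2 of these 4 were higher without WT replicate 1 or 3, or without *Piezo1 cKO* replicate 2 or 3. The same count was found on recovered reads without the filter on reads.

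tRNA maturation and export genes had 10 of 21 lower and 4 higher, with a median of -0.07. *Xpot*, which carries tRNA out of the nucleus (-0.46), and *Elac1*, which trims tRNA ends (-0.38), were lower, and *Tsen34*, of the splicing endonuclease (0.36), and *Thg1l*, which adds a guanylate to histidine tRNA (0.34), were higher. Of 44 tRNA modification enzymes tested, 21 were lower and 13 higher, with a median of -0.07, and the largest changes were those of *Yrdc*, which acts in making threonylcarbamoyl adenosine (-1.11), *Ctu2*, of the thiolation pathway (-0.46), *Elp5*, of Elongator (-0.42), and the deaminase *Adat1* (-0.38). Proofreading deacylases and synthetase-like genes had 1 of 7 lower and 3 higher, the deacylase *Dtd1* (0.26), *Prorsd1* (0.20) and *Ptrh2* (0.18), with a median of 0.05. In the selenocysteine pathway, where serine on tRNA is converted, *Pstk* (0.33), *Secisbp2* (0.18) and *Eefsec* (0.11) were higher and *Sephs1* (-0.11) was lower, and *Sepsecs* (-0.10) and *Sephs2* (0.03) did not pass; the median of these 6 was 0.07. All these fold changes are log2 values on the deposited scale, and the shares of all genes tested are 31.4% lower and 31.6% higher.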

How the data were processed

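RNA was measured in 3 WT and 3 *Piezo1 cKO* LSC libraries, built with Tn5 after Smart-seq2 based amplification. The submitters' processing notes name fastp 0.20.1, HISAT2 2.2.1, featureCounts 2.0.1 and DESeq2 1.28.1, which the authors used, and the build GRCm38. The deposited table holds log2 values of 55367 genes, of which 28965 are at 0 in all libraries and 0 in only some; the transform is not named, and the values have the form of a regularized log.

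Deposited values were tested in limma 3.58.1 under R 4.3.3 (lmFit, then eBayes with its trend option, no covariates) over the 16746 genes whose mean was 1 or more, with Benjamini-Hochberg adjustment over all of them. Reads were recovered by undoing the regularized log: 95.1% of values came within 0.1 of a whole number (92.9% for genes averaging 1 read or more, and 22.2% when the penalty was set off by 10%), then were rounded. For members 229 of 240 values did, the others being in *Farsa*, *Farsb*, *Nars2* and *Rars*. limma-voom was fitted to 17352 genes with at least 10 reads in total. PCR reads without molecular identifiers are not independent molecules. The read recovery, the limma fit of the deposited values and the limma-voom fit were tested on simulated data. The other steps were not.

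Exon lengths came from GENCODE M21 by symbol for all 40 genes, *Mars1* through its older name. Members and lists were chosen with earlier results of these data known. Some single genes, 1 member among them, are not reported here, and the other members are all named; values in each library are given for the 6 cytosolic and 5 mitochondrial genes with the largest absolute log2 fold change, for members opposite to most of their class and for scaffold genes, and up to 4 genes past the threshold per list, or lists of up to 6 genes whole. Library values or ranges of *Farsb*, *Hars*, *Dars* and *Wars2*, and the pairs with ratios in each library, were chosen after their values were seen. The pathway lists were elongation and termination, mitochondrial translation, amidotransferase and formyltransferase, selenocysteine, proofreading, tRNA maturation and export, tRNA modification, amino acid stress and mitochondrial ribosomal proteins. Alternatives were no filter, a mean of at least 5, centred libraries, the replicate number as a block, each library left out, a variance prior without trend, and the recovered reads with size factors, library totals or no filter. Tables and figures were made in Python 3.11.15 using pandas 2.3.3, numpy 2.4.6, scipy 1.17.1 and matplotlib 3.10.9.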

Additional observations from a re-analysis of the deposited data

How the results depend on the processing

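Over 40 genes and 14 alternatives, 533 of 560 fold changes stayed on their side of the threshold and kept their sign, 12 calls were lost, 7 were gained and 8 signs turned. No cytosolic call was lost or turned under these alternatives. The signs that turned belong to genes that did not pass: *Hars* (0.01 with centred libraries, 0.01 without WT replicate 3), *Dars* (-0.01 without WT replicate 2, -0.02 without *Piezo1 cKO* replicate 1), *Vars2* (0.00 without WT replicate 1, 0.01 without *Piezo1 cKO* replicate 1), *Lars2* (0.00 with centred libraries) and *Yars2* (-0.01 without WT replicate 2). With single libraries left out, log2 fold changes ran from -0.04 to 0.01 for *Hars*, from -0.02 to 0.03 for *Dars*, from -0.06 to 0.01 for *Vars2* and from -0.01 to 0.03 for *Yars2*.

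The count of cytosolic genes past both DEG thresholds downwards was 0 on the deposited scale and 4 on recovered reads with size factors, with library totals and without the filter, since the deposited values are shrunken. The median log2 fold change of cytosolic genes was -0.36 with centred libraries, -0.55 on recovered reads with and without the filter and -0.53 with library totals, and that of mitochondrial genes was -0.04 with centred libraries and -0.09 on recovered reads with and without the filter. With single libraries left out these medians ran from -0.40 to -0.37 and from -0.08 to -0.04, and the count of higher mitochondrial genes from 1 to 2, where *Aars2* joined without *Piezo1 cKO* replicate 1. Among the lists, 2 selenocysteine genes were lower in place of 1 with the replicate block, without WT replicate 2 and without *Piezo1 cKO* replicate 1, 0 proofreading genes in place of 1 at a mean of at least 5, and 13 mitochondrial ribosomal proteins in place of 20 with centred libraries. The cause of the other shifts was not tested. Without a filter 20.3% of all genes were lower and 19.8% higher, and without the filter on reads 20.6% were higher, since more genes with few reads were tested.

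The numbers of the labels do not pair the libraries by the rule used: deviations from the group mean correlated by 0.20, 0.16 and 0.07 between same-numbered libraries, though each library correlated best with its own number. With the replicate block, 3 mitochondrial genes were higher in place of 1 (*Fars2*, *Nars2* and *Aars2*), and no call of a member was lost; of all genes tested 32.9% were lower and 33.1% higher. The member with the fewest reads was *Wars2*, with 43.9 to 76.0 normalised reads a library.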
